A study of Saccharomyces cerevisiae with 22 samples.

Results

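SIP18, GRE1, STF2 and HSP12 encode small, very hydrophilic stress proteins of the budding yeast Saccharomyces cerevisiae. They were chosen by name, by matching the gene symbols of the array annotation, and each matched 1 probe set, which gave 4 genes of the 5449 that were measured. Their transcripts were followed on 22 Affymetrix arrays of total RNA through a first stress and through what came after it.

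The cells, of a strain labelled 4741, were grown in YPD at 30 °C and 2 arrays were taken before any stress. Single stresses were heat at 40 °C (30 and 45 min), KCl at 0.8 M (30 and 45 min) and H2O2 at 0.66 mM (15, 30, 45 and 90 min). Other cells spent 45 min in heat or in KCl and were then moved to the same peroxide dose (15, 30, 45 and 90 min) or back to rich medium (15 and 45 min), with times counted from the move. Below, naive peroxide means no stress came before it, and heat-primed or KCl-primed peroxide names the stress that did. Apart from the untreated pair, a condition at a given time was measured on 1 array, and no source used here says which arrays came from separate cultures. The p-values below therefore measure only the spread between these arrays, and in bulk RNA fewer cells with a transcript and less transcript per cell cannot be told apart.

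Hydrophilins are glycine-rich proteins that stay soluble and largely unfolded, and they are known for accumulating when cells lose water and for protecting other proteins from drying. SIP18 and GRE1 are a pair of related hydrophilin genes known for their induction by salt. STF2 encodes a hydrophilin first described as a stabilizer of the inhibited mitochondrial ATP synthase, and TMA10 is its paralog. HSP12 encodes a small heat shock protein that folds at membranes and protects the plasma membrane. The transcription factors Msn2 and Msn4 drive many such genes in general stress, and the kinase Hog1 acts in osmotic stress.

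Values are log2 expression levels, and a ratio is the log2 level minus the mean of the untreated pair. Medians of the arrays lay between 10.16 and 10.22, and over all genes the difference between the untreated arrays had an SD of 0.142. Of 7 genes specific to a-cells all were above background on all 22 arrays, and so were 3 of 4 genes specific to alpha-cells (MF(ALPHA)2, STE3 and SAG1), while the pheromone gene MF(ALPHA)1 was below it on all of them. Among auxotrophic marker genes URA3 was below background on all 22 arrays, LEU2 was above it on 3, MET17 on 5 and HIS3 on 22. Each of the 4 members was above the background of 4.62 on every array. SIP18 and GRE1 had untreated means of 5.81 and 6.03, between those of MF(ALPHA)2 at 5.205 and STE3 at 6.312. How much of such low levels is transcript was not tested, and the fold rises and negative shares of SIP18 and GRE1 depend on it.

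SIP18 was at 5.98 and 5.64 in the untreated pair. In KCl its level was 11.25 at 30 min and 12.72 at 45 min. In heat it was 9.25 at 30 min and 8.65 at 45 min. Both stresses lifted it clear of the untreated pair, and the KCl arrays lay above the heat arrays. In naive peroxide it stayed low, at 5.58, 6.30, 6.71 and 6.52 at 15, 30, 45 and 90 min, and the first of these lay below both untreated arrays. With limma, SIP18 rose 72.0-fold in KCl (log2 6.17 ± 0.45, SE, n = 2 arrays per group, adjusted p = 8.27e-05) and 8.81-fold in heat (3.14 ± 0.45, adjusted p = 0.00171). Its difference in peroxide at 30 and 45 min was 0.69 ± 0.45 (adjusted p = 0.310), with a 95% interval from -0.37 to 1.75. In the fit of the single stresses the 2 arrays of a stress are those at 30 and 45 min. The change between these times therefore counts as spread.

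GRE1 followed nearly the same course. Its untreated levels were 6.03 and 6.04. It was at 11.29 and 13.05 in KCl at 30 and 45 min. It was at 9.13 and 8.64 in heat at the same times. As for SIP18, the KCl series was still climbing at the last time while the heat series was already lower than at 30 min. In naive peroxide GRE1 was at 5.99, 6.44, 7.01 and 6.33 at 15, 30, 45 and 90 min, so its highest value there was 0.98 above the untreated mean. GRE1 rose 70.5-fold in KCl (log2 6.14 ± 0.51, n = 2 arrays per group, limma adjusted p = 0.000118) and 7.22-fold in heat (2.85 ± 0.51, adjusted p = 0.00395), and its difference in peroxide was 0.69 ± 0.51 (adjusted p = 0.371).

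STF2 started from a higher level on its own probe set, 9.76 and 9.64 in the untreated pair. It was at 13.23 and 13.19 in heat at 30 and 45 min. It was at 13.01 and 13.58 in KCl at those times. These 4 arrays lay close together, well above the untreated pair. In naive peroxide STF2 was at 11.43 at 15 min, 12.83 at 30 min, 12.72 at 45 min and 11.31 at 90 min, above the untreated pair at every time and highest in the middle of the series. STF2 rose 11.4-fold in heat (log2 3.51 ± 0.19, n = 2 arrays per group, limma adjusted p = 8.66e-05), 12.1-fold in KCl (3.60 ± 0.19, adjusted p = 3.97e-05) and 8.43-fold in peroxide (3.08 ± 0.19, adjusted p = 0.000273).

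HSP12 was at 10.49 and 10.45 in the untreated pair. It was at 14.69 and 14.70 in heat at 30 and 45 min. It was at 14.65 and 14.74 in KCl. These values lay near the top of the array's range: in heat and in KCl the HSP12 probe set was the brightest but 1 of 10928, within 0.21 of the brightest. In naive peroxide HSP12 was at 11.27, 13.02, 13.83 and 11.85 at 15, 30, 45 and 90 min, so its highest array was that at 45 min. STF2 was at nearly the same level at 30 and 45 min, 12.83 and 12.72. HSP12 rose 18.7-fold in heat (log2 4.23 ± 0.24, n = 2 arrays per group, limma adjusted p = 8.66e-05), 18.7-fold in KCl (4.22 ± 0.24, adjusted p = 4.06e-05) and 7.77-fold in peroxide (2.96 ± 0.24, adjusted p = 0.000762).

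**Figure D1:**
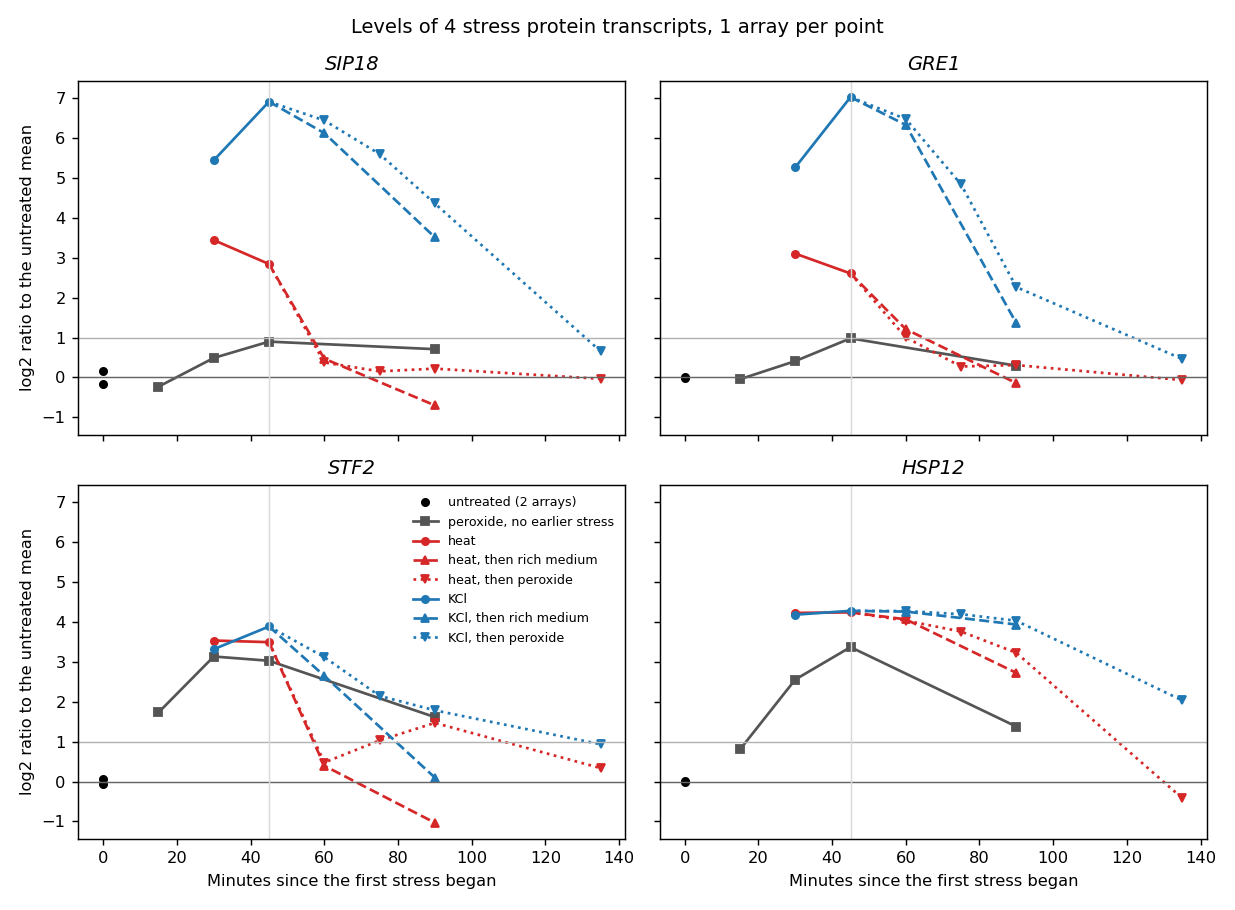
Log2 ratio of each gene to the mean of the untreated pair (vertical axis) against minutes since the first stress began (horizontal axis), with 1 array per point, a grey vertical line where cells were moved to the second condition at 45 min and a grey horizontal line at 2-fold. SIP18 and GRE1 reach 6.90 and 7.02 in KCl, while HSP12 stays between 3.93 and 4.27 on the KCl arrays and for 45 min after them. Those HSP12 levels lay near the top of the array's range.

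By count, all 4 genes rose in heat, where 27.5% of all genes rose, and all 4 rose in KCl, where 30.2% did. In naive peroxide STF2 and HSP12 rose and SIP18 and GRE1 did not pass, against 11.2% of all genes that rose. The median difference of the 4 genes was 3.32 in heat, 5.18 in KCl and 1.83 in peroxide, beside 0.07, 0.03 and -0.03 for all genes. These 3 comparisons share the untreated arrays. With 1 fit of all 22 arrays, in which peroxide is the mean of its 4 times, SIP18 and GRE1 in heat had an adjusted p of 0.0526 and 0.137, and STF2 and HSP12 in peroxide had 0.249 and 0.321. Taking all 4 peroxide times gave 2.37 for STF2 (adjusted p = 0.124) and 2.02 for HSP12 (adjusted p = 0.192).

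Heat and KCl were then compared directly, to ask which of the genes told the 2 stresses apart. The level of SIP18 in heat was 8.18-fold below that in KCl (log2 -3.03 ± 0.45, n = 2 arrays per group, limma adjusted p = 0.00474). GRE1 was 9.76-fold lower (-3.29 ± 0.51, adjusted p = 0.00528). Neither of the other members passed. STF2 differed by -0.09 ± 0.19 (adjusted p = 0.757) with a 95% interval from -0.54 to 0.37, and HSP12 by 0.00 ± 0.24 (adjusted p = 0.993) with an interval from -0.57 to 0.58. Of all genes 15.2% were lower in heat. In 1 fit of all 22 arrays neither SIP18 nor GRE1 passed (adjusted p = 0.0899 and 0.129). The HSP12 levels compared here are those near the top of the array's range, and whether a higher level could have been read there was not tested. The highest levels of STF2, GRE1 and SIP18 were 1.27, 1.80 and 2.13 below the brightest probe set of their arrays.

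**Figure D2:**
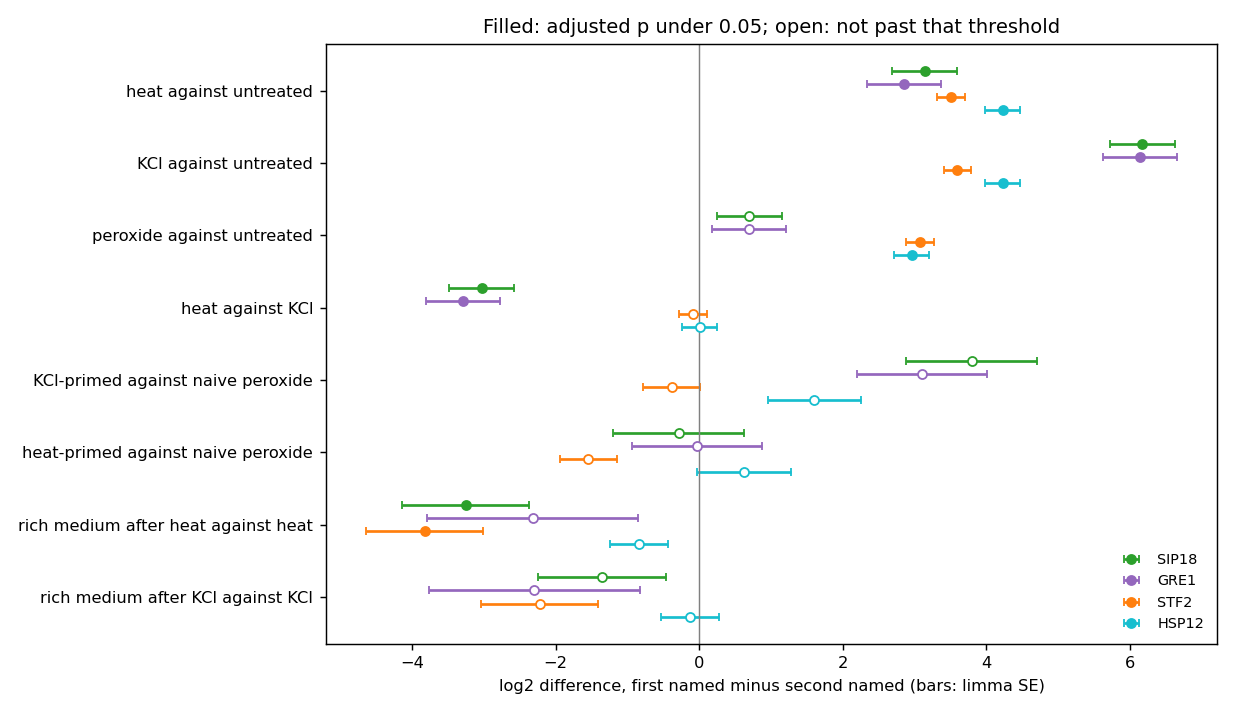
Log2 difference of each gene in 8 comparisons (horizontal axis, the first-named group minus the second), with limma standard errors as bars, filled symbols for an adjusted p under 0.05 and open symbols for the others. SIP18 and GRE1 lie at 6.17 and 6.14 for KCl against untreated and at 0.69 for peroxide against untreated, while STF2 and HSP12 lie between 2.96 and 4.23 in all 3 single stresses.

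The relatives of these genes give the setting in which they moved. TMA10, the paralog of STF2, rose in heat by 6.01 ± 0.27, in KCl by 5.91 ± 0.27 and in peroxide by 4.48 ± 0.27 on the log2 scale (limma adjusted p = 7.36e-05, 2.55e-05 and 0.000254). STF1 and INH1 encode inhibitors of the mitochondrial ATP synthase, with which STF2 is known to act. STF1 rose by 2.99 ± 0.22 in heat, 2.66 ± 0.22 in KCl and 1.92 ± 0.22 in peroxide. INH1 rose by 0.89 ± 0.25 in heat and 0.75 ± 0.25 in KCl, and its difference in peroxide was -0.76 ± 0.25 (adjusted p = 0.0733). GRE2 and GRE3, reductase genes named with GRE1 for their response to stress, rose in all 3 stresses. GRE2 was at 0.90, 2.58 and 2.36 in heat, KCl and peroxide, and GRE3 at 2.82, 2.74 and 1.17, as log2 differences. In heat and in KCl 5 of these 5 relatives rose, and in peroxide 4 of 5, against 27.5%, 30.2% and 11.2% of all genes.

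Of 5 other genes described as hydrophilins 3 were measured, and they moved in different directions. NOP6, which acts in ribosome assembly, fell by 2.36 in heat and fell by 2.28 in KCl on the log2 scale (± 0.38, limma adjusted p = 0.00251 and 0.00195). WWM1 rose by 0.83 ± 0.16 in heat and differed by 0.01 ± 0.16 in KCl. YNL190W differed by 0.06 ± 0.12 in heat and fell by 0.37 in KCl (± 0.12, adjusted p = 0.0348). Of these 3 genes 1 rose and 1 fell in heat, 2 fell in KCl, and none passed in peroxide, where the adjusted p of the 3 was between 0.129 and 0.438. Over all 5449 genes 27.5% rose in heat, 30.2% in KCl and 11.2% in peroxide, and 1221, 1415 and 391 genes fell.

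Of 30 general stress genes, most of them known targets of Msn2 and Msn4, all 30 rose in heat and in KCl and 27 rose in peroxide, with medians of 3.62, 4.06 and 2.04. Of 13 measured genes tied to the Hog1 pathway 9 rose in heat, 11 in KCl and 6 in peroxide. Among them STL1, a glycerol symporter, and PUT4, a proline permease, were at 9.05 and 6.33 in KCl and at 0.41 and 0.26 in heat (adjusted p in heat = 0.238 and 0.389). HXT5, a hexose transporter gene, and CTT1, the cytosolic catalase gene, rose in both stresses, by 7.40 and 6.69 in KCl and by 4.63 and 4.54 in heat. Of 21 genes for stress regulators 12 rose and 4 fell in KCl, 8 rose and 2 fell in heat, and 4 rose and 3 fell in peroxide. Of all 5449 genes 1647 rose and 1415 fell in KCl, 1500 rose and 1221 fell in heat, and 610 rose and 391 fell in peroxide. MSN2 and MSN4, named here for their role after their values were seen, rose by 1.40 ± 0.16 and 1.20 ± 0.23 in KCl. In heat MSN4 rose by 0.72 ± 0.23, and MSN2 was at 0.36 ± 0.16 (adjusted p = 0.102). YAK1, a kinase that acts against growth signals, rose by 1.57 ± 0.24 in heat, 2.45 ± 0.24 in KCl and 0.996 ± 0.24 in peroxide. Of 9 genes of the eisosome and other plasma membrane domains 5 rose and 1 fell in heat, 6 rose in KCl, and 2 rose and 1 fell in peroxide, beside those same counts over all genes. Among them FMP45, a membrane protein gene, rose by 3.94 ± 0.55 in heat and 6.18 ± 0.55 in KCl. HSP30, another plasma membrane stress protein gene, rose by 6.56 ± 0.79 in heat, 2.43 ± 0.79 in KCl and 3.69 ± 0.79 in peroxide.

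The end of the first stress was followed on the arrays of cells returned to rich medium. After heat, SIP18 was at 6.28 at 15 min and 5.11 at 45 min, so the later array lay below both untreated arrays. GRE1 was at 7.24 and 5.89 at those times. STF2 was at 10.09 and 8.67, which put it 1.03 below the untreated mean on the log2 scale at 45 min. HSP12 alone among the 4 remained high, at 14.53 and 13.19. Its ratio of 4.06 at 15 min and 2.72 at 45 min was the highest of all 5449 genes on each of these arrays. The brightness of the earlier one was again close to the limit of the array, 0.32 below the brightest probe set.

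After KCl, the arrays from rich medium kept more of the rise. SIP18 was at 11.93 at 15 min and 9.32 at 45 min. GRE1 was at 12.36 and 7.39. STF2 was at 12.35 and 9.80, the second value within 0.10 of the untreated mean. HSP12 was at 14.72 and 14.40, hardly below its level in KCl. These 2 values were 0.13 and 0.47 below the brightest probe set, so near the top of the array's range, and whether that hid a change was not tested. At 45 min the ratio of SIP18 was the 4th highest of all genes and that of HSP12 the 3rd, while GRE1 was 33rd and STF2 1352nd.

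Counted at 2-fold above the untreated mean, all 4 genes were up on both heat arrays and both KCl arrays, against 15.7%, 11.2%, 16.8% and 17.3% of all genes. Afterwards 2 of the 4 genes were up at 15 min after heat (GRE1 and HSP12) and 1 at 45 min (HSP12), against 3.27% and 1.05% of all genes. After KCl all 4 were up at 15 min and 3 at 45 min (SIP18, GRE1 and HSP12), against 6.53% and 1.01%. The last sampled time at 2-fold in rich medium was therefore 45 min for HSP12 after either stress, 45 min after KCl for SIP18 and GRE1, and 15 min after KCl for STF2. GRE1 after heat lasted to 15 min, and SIP18 and STF2 were under 2-fold at the first array after heat.

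As a share of the log2 rise on the 45 min array of the stress, HSP12 in rich medium kept 95.9% at 15 min and 64.2% at 45 min when heat had come first. When KCl had come first it kept 99.6% and 92.0%. SIP18 kept 16.5% and -24.6% after heat against 88.6% and 50.8% after KCl, where a negative share is a level under the untreated mean. GRE1 kept 46.4% and -5.45% after heat and 90.1% and 19.4% after KCl. STF2 kept 11.3% and -29.6% after heat and 68.2% and 2.53% after KCl. The median share over all genes at least 2-fold up on the same stress array was 24.1% and 2.41% after heat (611 genes) and 33.0% and -5.13% after KCl (942 genes). At 45 min after heat 19 of those genes kept a larger share than HSP12, and at 45 min after KCl 3 did. For SIP18 after KCl 22 genes kept more, and for SIP18 and STF2 after heat 517 and 534 of the 611 did. A level held near the top of the range would show a share near 100% whatever lay above it, and this was not tested for HSP12.

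**Figure D3:**
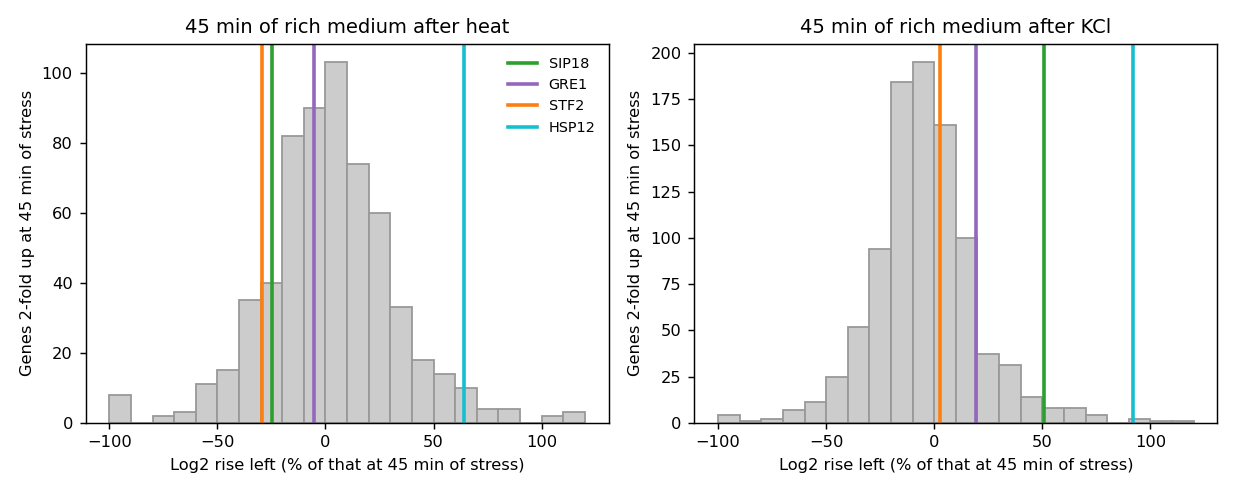
Number of genes (vertical axis) by the share of their log2 rise that was left after 45 min of rich medium (horizontal axis, percent of the rise at 45 min of stress), for 611 genes 2-fold up in heat and 942 in KCl, with coloured lines at the 4 genes and the outermost bars holding all values beyond them. HSP12 lies to the right at 64.2% and 92.0%, and STF2 moves from -29.6% after heat to 2.53% after KCl.

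The speed of the fall between 15 and 45 min of rich medium differed among the genes. After KCl GRE1 lost 4.96 on the log2 scale over that interval, which is 1.65 per 10 min and more than 99.9% of the genes that were 2-fold up in KCl. These falls were not scaled to the rise, and a gene with a smaller rise has less to lose. The GRE1 rise at 45 min of KCl, 7.02, was itself larger than that of 99.3% of those genes. The rank and the medians below therefore depend on the size of the rise as well. SIP18 lost 2.61, or 0.87 per 10 min, and STF2 lost 2.55, or 0.85 per 10 min. HSP12 lost 0.32, or 0.11 per 10 min, beside a median of 0.22 for those genes, from levels near the top of the array's range. In the first 15 min after KCl the losses were smaller for the pair, 0.79 for SIP18 and 0.70 for GRE1, with 1.23 for STF2 and 0.02 for HSP12. After heat the order was otherwise: STF2 lost 3.09 and SIP18 2.37 in the first 15 min, before losing 1.43 and 1.17 in the interval that followed. In that interval after heat HSP12 lost 1.34, or 0.45 per 10 min, close to GRE1 at 0.45 and STF2 at 0.48 and above the median of 0.12 for genes 2-fold up in heat. TMA10 was 3.85 lower after the first 15 min in rich medium following heat and 4.77 lower following KCl. As a share of its own rise TMA10 kept 32.3% and then -1.98% when heat had come first, and 20.5% and then 24.3% when KCl had, so it kept more than STF2 on each of these arrays but the one at 15 min after KCl.

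Tested with limma over both times, SIP18 was lower in rich medium after heat than in heat (log2 -3.25 ± 0.89, n = 2 arrays per group, adjusted p = 0.0372), as was STF2 (-3.83 ± 0.81, adjusted p = 0.0168). GRE1 at -2.32 ± 1.47 and HSP12 at -0.84 ± 0.40 did not pass (adjusted p = 0.265 and 0.158). These 2 of 4 genes compare with 13.6% of all genes that were lower. TMA10 was also lower (-5.14 ± 0.58, adjusted p = 0.00450). Both calls rest on few arrays: the adjusted p was 0.198 for SIP18 and 0.108 for STF2 without the heat array at 30 min, 0.0931 and 0.0642 without that at 45 min, and 0.167 and 0.0891 without the later rich medium array. For SIP18 it was 0.0647 without the rich medium array at 15 min and 0.0508 without either KCl array. HSP12 passed without the rich medium array at 15 min (-1.51, adjusted p = 0.0322), and GRE1 without either array of rich medium after KCl (adjusted p = 0.0353).

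After KCl, none of the 4 passed for rich medium against KCl with limma, where 32.9% of all genes were called in either direction. An unadjusted p under 0.05 was reached by 1 of the 4 and by 2451 of all 5449 genes. The differences were -1.36 ± 0.89 for SIP18, -2.30 ± 1.47 for GRE1, -2.22 ± 0.81 for STF2 and -0.13 ± 0.40 for HSP12 (n = 2 arrays per group, adjusted p = 0.273, 0.263, 0.0749 and 0.820). TMA10 was lower (-4.56 ± 0.58, adjusted p = 0.00238). In these fits the change between 15 and 45 min counts as spread. Without the 15 min array SIP18, GRE1 and STF2 passed, at -2.66, -4.78 and -3.50 (adjusted p = 0.0277, 0.00665 and 0.00596), with the lone array left in that group taken to vary like the other groups.

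Against untreated cells, none of the 4 passed in rich medium after heat or after KCl, and neither did any other gene (0% called). With limma, 288 and 405 of all genes had an unadjusted p under 0.05, and among the 4 genes 1 and 2 had. SIP18 was at -0.11 ± 0.90 after heat and 4.81 ± 0.90 after KCl (n = 2 arrays per group, adjusted p = 0.988 and 0.420). GRE1 was at 0.53 ± 1.60 and 3.84 ± 1.60 (adjusted p = 0.976 and 0.690). STF2 was at -0.32 ± 0.91 and 1.37 ± 0.91 (adjusted p = 0.975 and 0.737), and HSP12 was at 3.39 ± 0.44 and 4.09 ± 0.44 (adjusted p = 0.693 and 0.248). Without the 45 min array after KCl, SIP18, GRE1 and HSP12 passed at 6.12, 6.32 and 4.25 (adjusted p = 0.0211, 0.0220 and 0.0440), with the lone array taken to vary like the other groups. Rich medium after heat set directly against rich medium after KCl gave -4.93 ± 0.90 for SIP18, -3.31 ± 1.60 for GRE1, -1.69 ± 0.91 for STF2 and -0.70 ± 0.44 for HSP12, none past the threshold (adjusted p from 0.456 to 0.722). Of the 4 genes 1 had an unadjusted p under 0.05 there and of all genes 416 had, and without the same 45 min array SIP18 and GRE1 passed (-6.23 and -5.79, adjusted p = 0.0232 and 0.0327).

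Cells moved from heat into peroxide had lost most of the SIP18 and GRE1 signal by 15 min. SIP18 was at 6.19, 5.97, 6.03 and 5.78 at 15, 30, 45 and 90 min. GRE1 was at 7.04, 6.31, 6.34 and 5.97. Only the first GRE1 value reached 2-fold above the untreated mean, and it did so barely, at 2.004-fold. STF2 was at 10.17 at 15 min, higher at 10.73 and 11.17 at 30 and 45 min, and at 10.03 at 90 min. HSP12 was at 14.50, 14.22 and 13.69 at the first 3 times and at 10.06 at 90 min, which is 0.41 below the untreated mean.

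Cells moved from KCl into peroxide had higher levels of all 4 transcripts at every time than cells moved from heat. The last time at 2-fold was later for SIP18, GRE1 and HSP12. For STF2 it was 45 min after either stress, at 42.1% of the heat rise and 45.9% of the KCl rise. After heat, however, STF2 was under 2-fold at 15 min, at 13.6% of its rise, and higher again at 30 and 45 min. Its 45 min there is therefore not an unbroken duration, and in naive peroxide its ratio at 45 min was 3.02. SIP18 was at 12.25, 11.41, 10.17 and 6.47 at 15, 30, 45 and 90 min. GRE1 was at 12.50, 10.87, 8.29 and 6.50. STF2 was at 12.81, 11.84, 11.48 and 10.63, each lower than the one before. HSP12 was at 14.74, 14.66, 14.49 and 12.50, with the arrays at 15, 30 and 45 min near the top of the array's range. In this series 4 of the 4 genes were 2-fold up at 15, 30 and 45 min, against 8.97%, 7.52% and 5.14% of all genes, and at 90 min HSP12 was the only one, against 1.16%. In heat-primed peroxide 2 of the 4 were up at 15 min (GRE1 and HSP12), 2 at 30 and 45 min (STF2 and HSP12) and none at 90 min. The shares of all genes at these 4 times were 4.99%, 4.42%, 3.25% and 0.532%. In naive peroxide the count was 1 at 15 min (STF2) and 2 at the later times (STF2 and HSP12), against 3.29%, 8.18%, 6.46% and 2.26%.

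**Figure D4:**
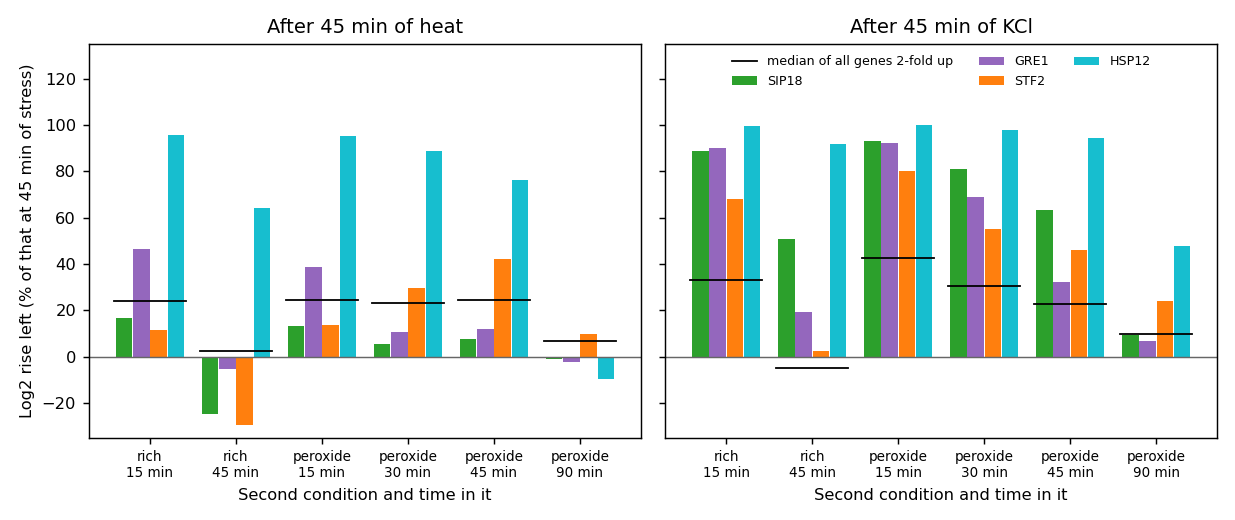
Share of the log2 rise at 45 min of stress that was left (vertical axis, percent) after each time in rich medium or peroxide (horizontal axis), for the 4 genes as bars and with a black line at the median of all genes 2-fold up at 45 min of the same stress. After KCl SIP18 keeps 93.2%, 81.0%, 63.1% and 9.48% at 15, 30, 45 and 90 min of peroxide, and in heat-primed peroxide it keeps 13.2% or less. In heat-primed peroxide STF2 goes from 13.6% at 15 min to 42.1% at 45 min, so a share there need not have lasted from the heat.

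Primed and naive peroxide were compared at the 4 matched times, to ask whether an earlier stress changed the level met in the later one. After KCl, SIP18 was above its naive level at 15, 30 and 45 min by 6.67, 5.10 and 3.46 on the log2 scale, and below it at 90 min by 0.05. GRE1 was above it at all 4 times, by 6.51, 4.42, 1.28 and 0.17. HSP12 was above it by 3.47, 1.64, 0.66 and 0.66. STF2 was above it at 15 min by 1.39 and below it later, by 0.99, 1.24 and 0.68. Over the 4 times the difference was 3.79 ± 0.91 for SIP18, 3.10 ± 0.91 for GRE1, 1.60 ± 0.65 for HSP12 and -0.38 ± 0.40 for STF2 (n = 4 arrays per group, limma adjusted p = 0.115, 0.149, 0.242 and 0.644). None passed, beside 0.147% of all genes called. An unadjusted p under 0.05 was reached by 3 of the 4 and by 1019 of all 5449 genes. A difference that shrinks with time counts as spread in this fit, and without the KCl-primed array at 90 min SIP18 passed at 5.001 (adjusted p = 0.00638).

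After heat, STF2 was below its naive level at all 4 times, by 1.25, 2.10, 1.56 and 1.28 on the log2 scale. Its difference was -1.55 ± 0.40 (n = 4 arrays per group, limma adjusted p = 0.0577), with a 95% interval from -2.45 to -0.64. It passed without the naive array at 15 min (-1.89, adjusted p = 0.0467), without the heat-primed array at 90 min (-1.69, adjusted p = 0.0497) and without the KCl-primed array at 15 min (-1.55, adjusted p = 0.00634). HSP12 was above its naive level by 3.23 at 15 min and 1.20 at 30 min, and below it by 0.14 and 1.79 at 45 and 90 min. SIP18 and GRE1 differed by -0.29 ± 0.91 and -0.03 ± 0.91, and HSP12 by 0.62 ± 0.65 (adjusted p = 0.862, 0.987 and 0.556). Of the 4 genes 0 were called by limma, beside 3.34% of all genes. An unadjusted p under 0.05 was reached by 1 of the 4 and by 1691 of all 5449 genes. TMA10 differed by -1.16 ± 0.38 (adjusted p = 0.0895), and the 30 general stress genes, none of which passed, had a median of -0.98.

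Heat-primed and KCl-primed peroxide differed in the same direction for all 4 genes. SIP18 was at -4.08 ± 0.91, GRE1 at -3.13 ± 0.91, STF2 at -1.17 ± 0.40 and HSP12 at -0.98 ± 0.65, as heat-primed minus KCl-primed (n = 4 arrays per group, limma adjusted p = 0.144, 0.177, 0.202 and 0.394). Of the 4, 0 passed, beside 0.128% of all genes called. An unadjusted p under 0.05 was reached by 3 of the 4 and by 1112 of all 5449 genes. At each of the 4 times each of the 4 genes was lower after heat than after KCl. Without the KCl-primed array at 90 min SIP18 passed at -5.29 (adjusted p = 0.00640).

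Peroxide and rich medium after the same first stress were compared at 15 and 45 min. After heat, STF2 was 0.08 higher in peroxide than in rich medium at 15 min and 2.50 higher at 45 min on the log2 scale. HSP12 was 0.03 lower at 15 min and 0.50 higher at 45 min. After KCl, STF2 was 0.47 and 1.68 higher in peroxide. SIP18 was 0.32 and 0.85 higher, GRE1 0.15 and 0.90, and HSP12 0.01 and 0.09. These HSP12 levels after KCl, and those at 15 min after heat, lay near the top of the array's range in both media. Whether that hid a difference was not tested. The fits gave 1.29 ± 0.77 for STF2 after heat and 1.08 ± 0.77 after KCl (n = 2 arrays per group, limma adjusted p = 0.994 and 0.692). SIP18 was at 0.41 ± 0.57 and 0.58 ± 0.57, GRE1 at 0.12 ± 1.08 and 0.53 ± 1.08, and HSP12 at 0.24 ± 0.29 and 0.05 ± 0.29. None of the 4 passed after either stress, beside 0.165% of all genes called each time. An unadjusted p under 0.05 was reached by 0 of the 4, and by 230 of all genes after heat and 400 after KCl. The effect of peroxide after heat less that after KCl was tested as an interaction, and 0 of the 4 genes and 0% of all genes were called by limma, with 0 and 18 at an unadjusted p under 0.05.

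The genes whose levels ran most like each member over the 22 arrays were found by Pearson's correlation, given as a description since the arrays are successive times of shared conditions. For SIP18 they were TKL2, a transketolase gene (r = 0.976), HBT1 (0.975), YGR201C (0.971), DAK1, a dihydroxyacetone kinase gene (0.969), and SPS100, a spore wall gene (0.965), with GRE1 next at 0.960. For GRE1 they were TKL2 (0.971), HBT1 (0.968), YGR201C (0.967), SIP18 (0.960) and SPS100 (0.957). For STF2 they were ATG8, an autophagy gene (0.968), YSC84 (0.963), the trehalose synthase gene TPS1 (0.963), the glucokinase gene GLK1 (0.960) and the trehalose synthase subunit gene TSL1 (0.958). For HSP12 they were HSP31, a stress chaperone gene (0.896), NDT80, a meiotic transcription factor gene (0.879), the small heat shock protein gene HSP26 (0.862), GSP2 (0.852) and the glutathione transferase gene GTT1 (0.843). STF2 and HSP12 had r = 0.507 with each other, and between 0.638 and 0.678 with SIP18 and GRE1. By Spearman's rho, which uses only the order of the arrays, HSP12 had 0.916 with GRE1, 0.802 with SIP18 and 0.665 with STF2. Whether the probe sets of the related SIP18 and GRE1 read part of each other's transcript was not tested.

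Markers of other cell states also differed between the arrays. The summed log2 level of 9 meiosis genes was 57.7 and 57.4 in the untreated pair, 70.7 and 68.2 in heat, 78.4 on both KCl arrays, and between 57.5 and 61.7 in naive peroxide. In KCl-primed peroxide it went from 72.5 at 15 min to 59.9 at 90 min, and in rich medium after KCl from 71.7 at 15 min to 58.4 at 45 min, where SIP18 was still 3.51 above the untreated mean. The median log2 ratio of the 7 a-specific genes was -0.76 and -0.72 in heat, -0.76 and -0.59 in KCl and -1.11 at 15 min of KCl-primed peroxide. For 6 stationary phase genes the sum was 46.2 and 47.1 untreated, 53.0 and 51.8 in heat, and 56.7 and 57.2 in KCl. All 9 meiosis genes, SPS100 and NDT80 among them, were above background on every array, 1 of the 6 stationary phase genes was below it on 1 untreated array, and the part of these marker sets in the results was not tested.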

How the data were processed

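The deposited log2 levels of the probe sets came from RMA, which the submitters' processing notes name without a version. A deposited table of the authors' log2 fold changes against time 0 covered 5900 of the 10928 probe sets and served as an alternative. Per the labels' protocols, cDNA was primed with poly(T) and hybridized as labelled cRNA. The array's annotation and the R64 gene table named 1 gene for 5498 probe sets, and the brightest probe set per gene left 5449 genes. Background was the 95th percentile of 1746 probe sets naming a gene absent from that table. No further scaling or filter was applied. The number of arrays limits the precision.

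Differences were fitted over all genes with limma 3.58.1 in R 4.3.3 (lmFit, eBayes), with Benjamini-Hochberg adjustment over all genes and a threshold of 0.05. The single stresses shared a fit of 8 arrays (untreated, and 30 and 45 min), the peroxide series 12 arrays with a time term, peroxide against rich medium 8 arrays with a time term, rich medium against untreated 6, and rich medium against the stress 8. Fits were tested on simulated data. The members, the gene lists and the named genes (the 4 members, TMA10, 5 genes per member by Pearson's correlation, all of a list of up to 6 genes and at most 4 of a longer one by size) were chosen with earlier results of these data known. Sequences and genome coordinates were not used here.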

Additional observations from a re-analysis of the deposited data

Results flagged for a closer look

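HSP12 in KCl-primed peroxide was at 12.50 at 90 min, far below its other 3 arrays at 14.74, 14.66 and 14.49, by Dixon's test at 95% over 12 sets of 4 arrays. The arrays of a set are different times, and chance gives about 1 such call in 20 sets.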

How the results depend on the processing

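Single arrays per time, the nearness of HSP12 to the top of the scale and the untreated pair shared by most comparisons limit the results. No paired analysis was possible because the labels give no replicate numbers that groups share, and arrays were matched by time instead. Other settings were quantile normalization, a shift to one median, the authors' fold changes, a filter on dim genes, a trended robust variance, 1 fit of all 22 arrays, other peroxide times and leaving out each array. For the last time at 2-fold, cutoffs of 0.5 and 2 on the log2 ratio and each untreated array alone were also used. Where no cause is named, the cause was not tested.

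Leaving out the dimmest 25% of genes, which removes SIP18 and GRE1 themselves, changed the members called from 4 to 2 in heat against untreated and in KCl against untreated, from 2 to 0 in heat against KCl, and from 2 to 1 in rich medium after heat against heat. It gave 1 (STF2, adjusted p = 0.0484) in heat-primed against naive peroxide. With 1 fit of all 22 arrays the count was 2 in heat, 0 in peroxide, 0 in heat against KCl and 1 in rich medium after KCl against KCl (STF2, adjusted p = 0.0269). Peroxide gave 1 with its arrays at 15 and 30 min and 0 with all 4 times. The sign turned for GRE1 in heat-primed against naive peroxide with quantile normalization (0.0819). In the fit of 22 arrays it turned for peroxide against rich medium after heat for GRE1 (-0.15) and HSP12 (-0.74), and after KCl for SIP18 (-0.55), GRE1 (-0.33) and HSP12 (-0.46), where the 90 min arrays enter.

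With each array left out in turn, the members called ranged from 0 to 1 in all 3 comparisons of primed or naive peroxide, from 0 to 3 in rich medium after KCl against untreated, from 0 to 2 between the rich medium groups, and from 0 to 3 in rich medium against the stress after heat and after KCl. Differences whose sign turned were short of the threshold with every array in and where the sign was the opposite one. They ranged from -0.37 to 0.20 for STF2 and from -0.0451 to 0.0514 for HSP12 in heat against KCl. In heat-primed against naive peroxide they ranged from -0.91 to 0.43 for SIP18, from -0.78 to 0.51 for GRE1 and from -0.12 to 1.27 for HSP12. In peroxide against rich medium after heat they ranged from -0.49 to 1.31 for SIP18, from -1.28 to 1.53 for GRE1, from -0.0908 to 2.67 for STF2 and from -0.21 to 0.68 for HSP12. After KCl they ranged from -0.15 to 1.32 for SIP18, from -0.91 to 1.97 for GRE1 and from -0.24 to 0.34 for HSP12. In rich medium after heat against untreated they ranged from -0.70 to 0.47 for SIP18, from -0.14 to 1.21 for GRE1 and from -1.03 to 0.39 for STF2. In rich medium after KCl against KCl they ranged from -4.78 to 0.18 for GRE1, which passed at the first of these values (adjusted p = 0.00665), and from -0.29 to 0.0294 for HSP12.

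Over all genes, 1001 were called in peroxide against untreated, and 4, 198 and 0 with the fit of 22 arrays, the times of 15 and 30 min and all 4 times. In heat-primed against naive peroxide 182 were called, and 333, 344, 312, 17 and 6 with quantile normalization, the filter, the robust variance, the fit of 22 arrays and no time term. The 22-array fit called 2234 in place of 1404 in rich medium after heat against heat, and 0 in place of 9 in peroxide against rich medium after either stress. With 1 array left out the calls ranged from 1469 to 3103 in heat against untreated, from 1976 to 3057 in KCl, from 125 to 1499 in peroxide, from 848 to 1874 in heat against KCl, from 1 to 829 in heat-primed against naive peroxide, from 0 to 129 in KCl-primed against naive peroxide, from 0 to 45 between the primed groups, from 209 to 1687 in rich medium after heat against heat and from 1086 to 1824 in rich medium after KCl against KCl. They ranged from 0 to 195 in rich medium after KCl against untreated and from 0 to 109 between the rich medium groups. The GRE1 value at 15 min of heat-primed peroxide, at the 2-fold threshold, was under it with quantile normalization, with the shift to one median and against 1 of the untreated arrays alone. At a log2 cutoff of 2 in place of 1, the last time was 15 min for GRE1 in rich medium after KCl. It was 30 min for STF2 in KCl-primed peroxide. No array reached that cutoff for STF2 in heat-primed peroxide or for GRE1 in either condition after heat. With 0.5 the last time was 90 min for SIP18 and STF2 in KCl-primed peroxide. Other last times were the same at both cutoffs.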
